A study of Mus musculus with 33 samples.

Results

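The HSF1 regions described here were present after 12 min of heat shock, were absent from the peak lists made before it, and lay at gene ends. HSF1, the factor that switches on heat shock genes, was mapped by chromatin immunoprecipitation and sequencing (ChIP-seq), which recovers the DNA bound by a protein. A region was a group of peaks of the antibodies labelled CS and MM that overlapped by at least 1 bp in the same cells at the same time. The members were chosen by these measured peaks: a region of the 60 min lists was kept if it overlapped a region of the 12 min lists, overlapped no CS or MM peak from before heat shock, and had its summit within 1 kb of either end of an annotated gene. The summit is the midpoint between 2 peak summits, those of the CS peak and of the MM peak that hold most tags (sequenced fragments) in the region. Of 3455 regions shared by the antibodies at 60 min, 249 met the rule.

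The cells were mouse embryonic fibroblasts (MEFs) of the 129Sv.BALB/c background, either wild type or HSF1-/-, sampled unheated and at 12 and 60 min of heat shock. The labels give no heating temperature, number of embryos or number of independent cultures. CS is a Cell Signaling antibody and MM was a gift from the Morimoto lab. An antibody against SRF was used in the wild type only, also at each time. No label says what CS and MM bind, and the file headers call the experiment an Hsf1 ChIP-seq. Peak lists were used for 15 of the 33 samples; the nascent RNA libraries, those of HSF1&2-/- cells among them, were not analysed here. A peak list holds no expression of marker genes, so the fibroblast label was not checked. Each genotype, time and antibody had 1 list, and no result below has a replicate error or a test between conditions.

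HSF1 waits in unstressed cells largely as an inactive monomer, and on heat shock it forms trimers that bind DNA. The trimer reads a heat shock element, a run of inverted GAA units in which each unit is contacted by a subunit of the trimer. Its best known targets are genes of chaperones, proteins that keep other proteins folded, and these genes are transcribed strongly within minutes of heating.

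The promoters below show what lies under the summits. Each runs 5′ to 3′ on the strand of its gene, from 250 bases before the annotated start to 50 bases after it, as RefSeq gives it for build GRCm38.p6 (the primary assembly of mm10). Capitals mark GAA and TTC units that form a pair of inverted units, GAANNTTC or TTCNNGAA. Hspa1b and Hspa1a lead the members by tags, Tra2b, Timm9 and Sf3b2 carry 3 units in a row, and Bag3, Hspb1 and Hspb8, picked after their values were seen, are an Hsp70 regulator and small heat shock proteins with summits near their genes' starts.
Hspa1b: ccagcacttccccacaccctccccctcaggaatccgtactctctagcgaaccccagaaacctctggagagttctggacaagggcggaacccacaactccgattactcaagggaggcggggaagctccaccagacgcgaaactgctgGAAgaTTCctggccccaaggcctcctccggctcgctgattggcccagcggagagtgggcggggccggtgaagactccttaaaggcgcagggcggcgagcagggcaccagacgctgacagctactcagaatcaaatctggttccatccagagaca
Hspa1a: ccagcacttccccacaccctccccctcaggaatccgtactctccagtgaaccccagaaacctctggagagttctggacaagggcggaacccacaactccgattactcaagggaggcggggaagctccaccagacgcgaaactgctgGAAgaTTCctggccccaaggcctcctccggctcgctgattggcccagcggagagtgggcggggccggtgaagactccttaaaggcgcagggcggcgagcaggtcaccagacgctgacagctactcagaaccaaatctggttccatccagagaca
Tra2b: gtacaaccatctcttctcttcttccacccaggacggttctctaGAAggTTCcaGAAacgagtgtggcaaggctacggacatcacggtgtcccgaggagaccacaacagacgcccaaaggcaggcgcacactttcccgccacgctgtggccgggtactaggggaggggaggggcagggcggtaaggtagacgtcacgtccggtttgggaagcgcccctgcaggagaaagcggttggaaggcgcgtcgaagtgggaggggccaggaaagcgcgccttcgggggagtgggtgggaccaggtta
Timm9: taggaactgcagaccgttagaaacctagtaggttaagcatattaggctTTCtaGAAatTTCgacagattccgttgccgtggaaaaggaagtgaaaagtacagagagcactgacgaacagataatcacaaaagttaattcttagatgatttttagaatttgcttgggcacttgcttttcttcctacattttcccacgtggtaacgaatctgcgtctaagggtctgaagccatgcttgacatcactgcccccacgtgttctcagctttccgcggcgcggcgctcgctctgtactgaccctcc
Sf3b2: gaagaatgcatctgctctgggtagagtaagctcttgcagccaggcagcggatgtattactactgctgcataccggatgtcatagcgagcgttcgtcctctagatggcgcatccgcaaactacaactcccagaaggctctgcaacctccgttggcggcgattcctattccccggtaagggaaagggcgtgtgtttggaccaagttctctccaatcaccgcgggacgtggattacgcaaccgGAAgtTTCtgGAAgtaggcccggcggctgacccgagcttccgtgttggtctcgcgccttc
Bag3: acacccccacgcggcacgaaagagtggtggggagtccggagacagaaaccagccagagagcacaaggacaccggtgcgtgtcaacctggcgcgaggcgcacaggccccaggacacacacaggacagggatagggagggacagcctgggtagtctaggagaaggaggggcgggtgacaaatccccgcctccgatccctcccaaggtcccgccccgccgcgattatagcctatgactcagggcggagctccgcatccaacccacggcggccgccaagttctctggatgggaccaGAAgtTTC
Hspb1: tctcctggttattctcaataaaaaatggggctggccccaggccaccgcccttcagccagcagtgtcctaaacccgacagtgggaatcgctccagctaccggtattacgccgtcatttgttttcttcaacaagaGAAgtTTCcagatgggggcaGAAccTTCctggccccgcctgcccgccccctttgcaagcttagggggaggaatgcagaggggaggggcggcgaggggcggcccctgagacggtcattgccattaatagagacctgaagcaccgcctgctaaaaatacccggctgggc
Hspb8: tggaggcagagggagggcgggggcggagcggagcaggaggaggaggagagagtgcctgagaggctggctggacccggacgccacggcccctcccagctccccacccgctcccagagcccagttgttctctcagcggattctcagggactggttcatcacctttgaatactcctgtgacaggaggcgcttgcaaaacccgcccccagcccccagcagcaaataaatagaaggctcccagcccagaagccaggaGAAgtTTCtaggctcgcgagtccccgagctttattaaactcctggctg

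The promoters of Hspa1b (chr17:34959189-34959488, minus strand) and Hspa1a (chr17:34972107-34972406, minus strand) share 296 of 300 bases. Each holds 1 pair of inverted units and none of the 3-unit elements, and the pair lies 80.5 bp from the summit at Hspa1b and 29.5 bp from it at Hspa1a. In Tra2b (chr16:22265956-22266255, minus strand), which encodes a splicing regulator, the 3-unit element is centred 201 bp before the start and 33 bp from the summit. In Timm9 (chr12:71136626-71136925, minus strand), a small chaperone of mitochondrial protein import, it is centred 196 bp before the start and 48 bp from the summit. The same element is centred 23 bp after the start of 2700049A03Rik on the other strand, the gene end nearest that summit at 71 bp. In Sf3b2 (chr19:5295406-5295705, minus strand), a subunit of the spliceosome's U2 particle, the 3-unit element is centred 4 bp before the start and 15 bp from the summit. The pair of Bag3 (chr7:128523333-128523632, plus strand) sits at the downstream edge of the window, 2.5 bp from the summit. Hspb1 (chr5:135887669-135887968, plus strand) has 2 such pairs and Hspb8 (chr5:116422815-116423114, minus strand) has 1, in each case 7.5 bp from the summit at the nearest.

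The members were well filled regions of the 60 min lists. In the CS list of 60 min their tags ran from 28 to 1402 with a median of 175, and in the MM list from 20 to 1166 with a median of 102. Over all 3455 regions the medians were 86 and 42 tags. At 12 min the best region under each member held 26 to 802 CS tags (median 102) and 15 to 621 MM tags (median 59), beside medians of 79 and 45 over all 1412 regions of that time. These values helped choose the members and are given as a description. The tags and folds are the authors' values for each peak, and lists of different times differ in depth, so a 12 min and a 60 min value stand side by side and are not a measured change.

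Members at gene ends differed in shape from the regions inside and between genes that met the same time rule. The median member was 1448 bp long at 60 min, beside 1158 bp for 450 regions inside genes and 1091 bp for 299 between genes. Median CS tags were 175, 141 and 134 in the same order, whereas the median CS fold over the IgG control was 40.4, 55.3 and 55.2. Median MM tags were 102, 66.5 and 60, and the median MM folds of 32.2, 35.1 and 32.7 lay closer together. At gene ends, 350 regions found at 60 min only had a median of 76 CS tags, and 75 regions with a peak before heat shock a median of 416.

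More members met the authors' false discovery limit at 60 min than at 12 min. The authors' false discovery rate was 5% or less for 245 of 249 CS peaks and 245 MM peaks at 60 min, against 190 CS peaks and 212 MM peaks at 12 min. Over all regions the shares at 60 min were 92.2% for CS and 88.4% for MM, beside 98.4% of members for each, and at 12 min they were 74.4% and 80.6%, beside 76.3% and 85.1% of members. The highest rate was 59.8% at 12 min and 21.8% at 60 min. All 4 peaks were at 5% or less in 172 members. In the 12 min CS list the rate did not follow tags alone. It was 7.41% at Hspa1b, 5.41% at Hspa1a and Hspa1l and 8.0% at Swt1 and Trmt1l, which ranked 1 to 3 by CS tags there. Acat3, with 38 CS tags, was also above the limit at 45.0%. Absence before heat shock means absence from lists of 180 CS and 449 MM peaks, for which the estimated fragment length was 45 and 40 bp, close to the 36 bp tags, against 107 to 161 bp in the heat shock libraries.

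The antibodies ordered the members much alike. Spearman's rho across the 249 regions was 0.894 between CS and MM tags at 12 min and 0.912 at 60 min. The CS and MM libraries of a time share their IgG control and the positions of the regions, so these are descriptions of the lists. Between 12 and 60 min rho was 0.675 for CS tags and 0.719 for MM tags. Of the 25 members with most tags at 12 min, 16 were among the first 25 at 60 min. CS and MM summits lay a median of 17 bp apart at 60 min, and the summit of a member lay a median of 15 bp from its 12 min summit. Jund had the widest gap: its CS and MM summits at 60 min were 2500 bp apart, so the midpoint that places it at the gene's 3′ end lies under neither peak's summit.

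**Figure D1:**
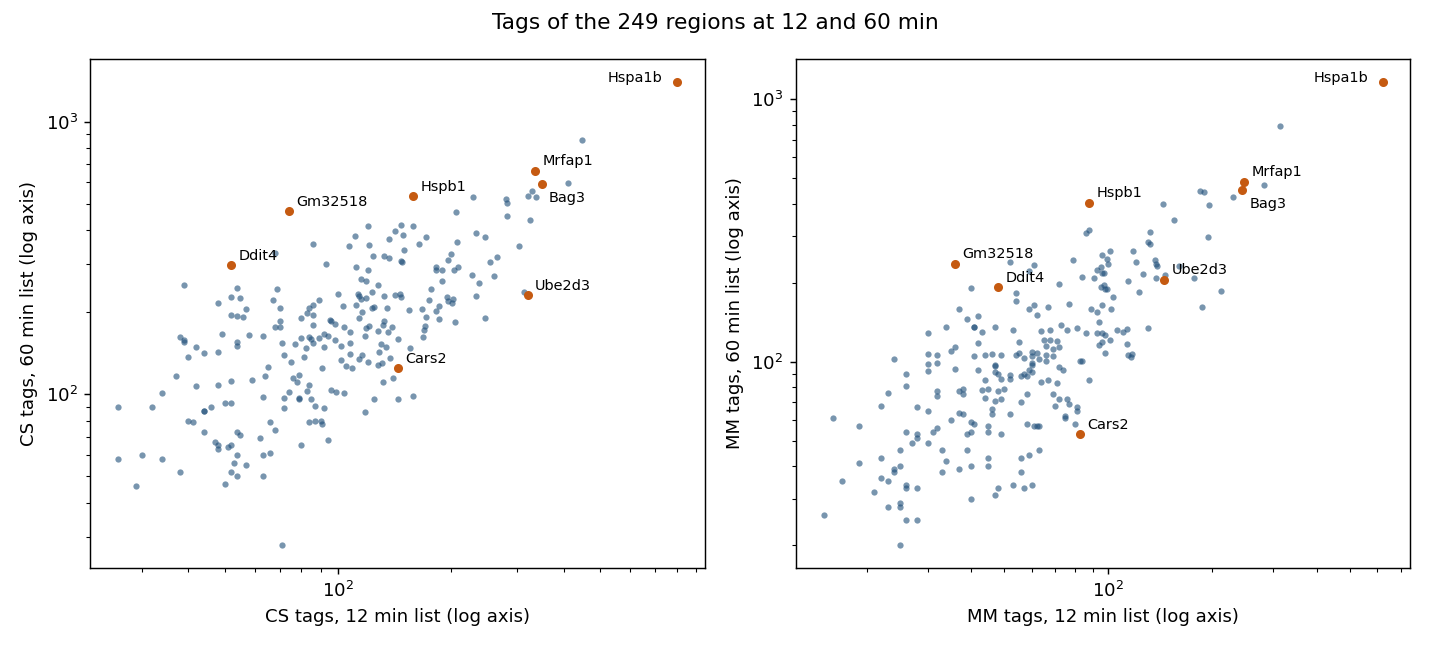
Tags of the 249 regions in the 12 min list (x axis, log scale) and in the 60 min list (y axis, log scale), for the CS antibody on the left and the MM antibody on the right; each point is 1 region and named regions are orange. Hspa1b stands at the upper right with 802 and 1402 CS tags, while Gm32518 (74 and 469) and Ube2d3 (320 and 231) lie on opposite sides of the cloud. Gm32518 overlapped 2 regions at 12 min, and its value there is that of the region with more CS tags.

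The strongest member was Hspa1b, which encodes an inducible Hsp70, the chaperone that binds unfolded stretches of other proteins. Its region (chromosome 17, 34956940 to 34962747) held 802 CS and 621 MM tags at 12 min and 1402 CS and 1166 MM tags at 60 min. At 5808 bp it was the longest of the members. The neighbouring region at Hspa1a and Hspa1l, which encode another inducible Hsp70 and a related Hsp70, held 448 CS and 313 MM tags at 12 min and 857 and 789 at 60 min. Since the Hspa1a and Hspa1b promoters are nearly identical, how tags were divided between them depends on read placement, a step not given in the sources used here. Hspa4, an Hsp110 that helps Hsp70 release its nucleotide, held 123 CS and 76 MM tags at 12 min and 207 and 132 at 60 min.

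The gene lists place these in families. Of 12 listed genes of the Hsp70 and Hsp110 family, 4 had a member at an end, and 3 more (Hspa4l, Hspa8 and Hsph1) had a region that already held a peak before heat shock. For comparison, 0.982% of the 21900 protein-coding genes had a member at an end (215 genes). The lists hold chaperone families because HSF1 is known for them, and they were drawn up with earlier results of these data known, so the counts describe the lists and support no more than that.

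J-domain proteins, which deliver clients to Hsp70, had a member at 4 of 27 genes. Dnaja4 held 283 CS and 184 MM tags at 12 min and 505 and 446 at 60 min, the most of the family. Dnajb4 held 103 CS and 40 MM tags at 12 min and 210 and 191 at 60 min. Dnajb5 and Dnajb2 reached 158 and 131 CS tags at 60 min. Dnaja1 and Dnajb1 had a region at an end that overlapped a CS or MM peak from before heat shock and are not members.

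Among small heat shock proteins, which hold unfolded proteins in a refoldable state, 3 of 9 genes had a member and none had a region that held a peak before heat shock. Hspb1 (Hsp27) went with 159 CS and 88 MM tags at 12 min and 533 and 403 at 60 min, which placed it among the 8 members with most tags at 60 min but not among the first 10 at 12 min. Hspb8 held 164 CS and 130 MM tags at 12 min and 357 and 286 at 60 min. Hspb2, whose end lay 869 bp from the summit, held 95 CS and 48 MM tags at 12 min and 187 and 77 at 60 min.

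Bag3, a nucleotide exchange factor that links Hsp70 to small heat shock proteins, was among the 5 strongest members at both times. It held 349 CS and 244 MM tags at 12 min and 591 and 452 at 60 min. Hspbp1, another exchange factor of Hsp70, held 105 and 58 at 12 min and 127 and 88 at 60 min. Hikeshi, which carries Hsp70 into the nucleus in heated cells, was on none of the lists and held 159 CS and 88 MM tags at 12 min and 416 and 316 at 60 min.

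More Hsp90 and chaperonin genes had a peak before heat shock than had a member. Of 23 genes of Hsp90 and its cochaperones, 2 had a member and 8 had a region with a peak before heat shock, Hsp90aa1 and Hsp90ab1 among them. The members were Cacybp, a calcyclin-binding protein, with 338 CS and 189 MM tags at 12 min and 531 and 443 at 60 min, and Ahsa2, a relative of the Hsp90 activator Aha1, with 237 and 138 at 12 min and 256 and 231 at 60 min. Of 17 TRiC and prefoldin genes, whose products fold actin and tubulin, 2 had a member and 6 a region with an earlier peak. The TRiC members Cct5 and Cct2 held 266 and 145 CS tags at 12 min and 319 and 160 at 60 min, and their MM tags were 186 and 116 at 12 min and 161 and 104 at 60 min.

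The lists of organelle chaperones had 4 members. In mitochondria 1 of 14 listed genes had one: Hspa9, the mitochondrial Hsp70, with 171 CS and 117 MM tags at 12 min and 178 and 107 at 60 min. Of 24 genes of folding in the endoplasmic reticulum, 3 had a member. Hsp90b1, the Hsp90 of that compartment, held 201 and 102 tags at 12 min and 216 and 158 at 60 min. Pdia3, which forms disulphide bonds, held 115 and 96 at 12 min and 265 and 165 at 60 min, and Canx, a lectin chaperone, reached 180 CS tags at 60 min. Ubiquitin and protein clearance had 2 members among 45 genes. Zfand1, which acts in clearing stress granules, held 54 CS and 54 MM tags at 12 min and 245 and 182 at 60 min, and Ube2d3, a ubiquitin-conjugating enzyme, held 320 and 145 at 12 min and 231 and 205 at 60 min.

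**Figure D2:**
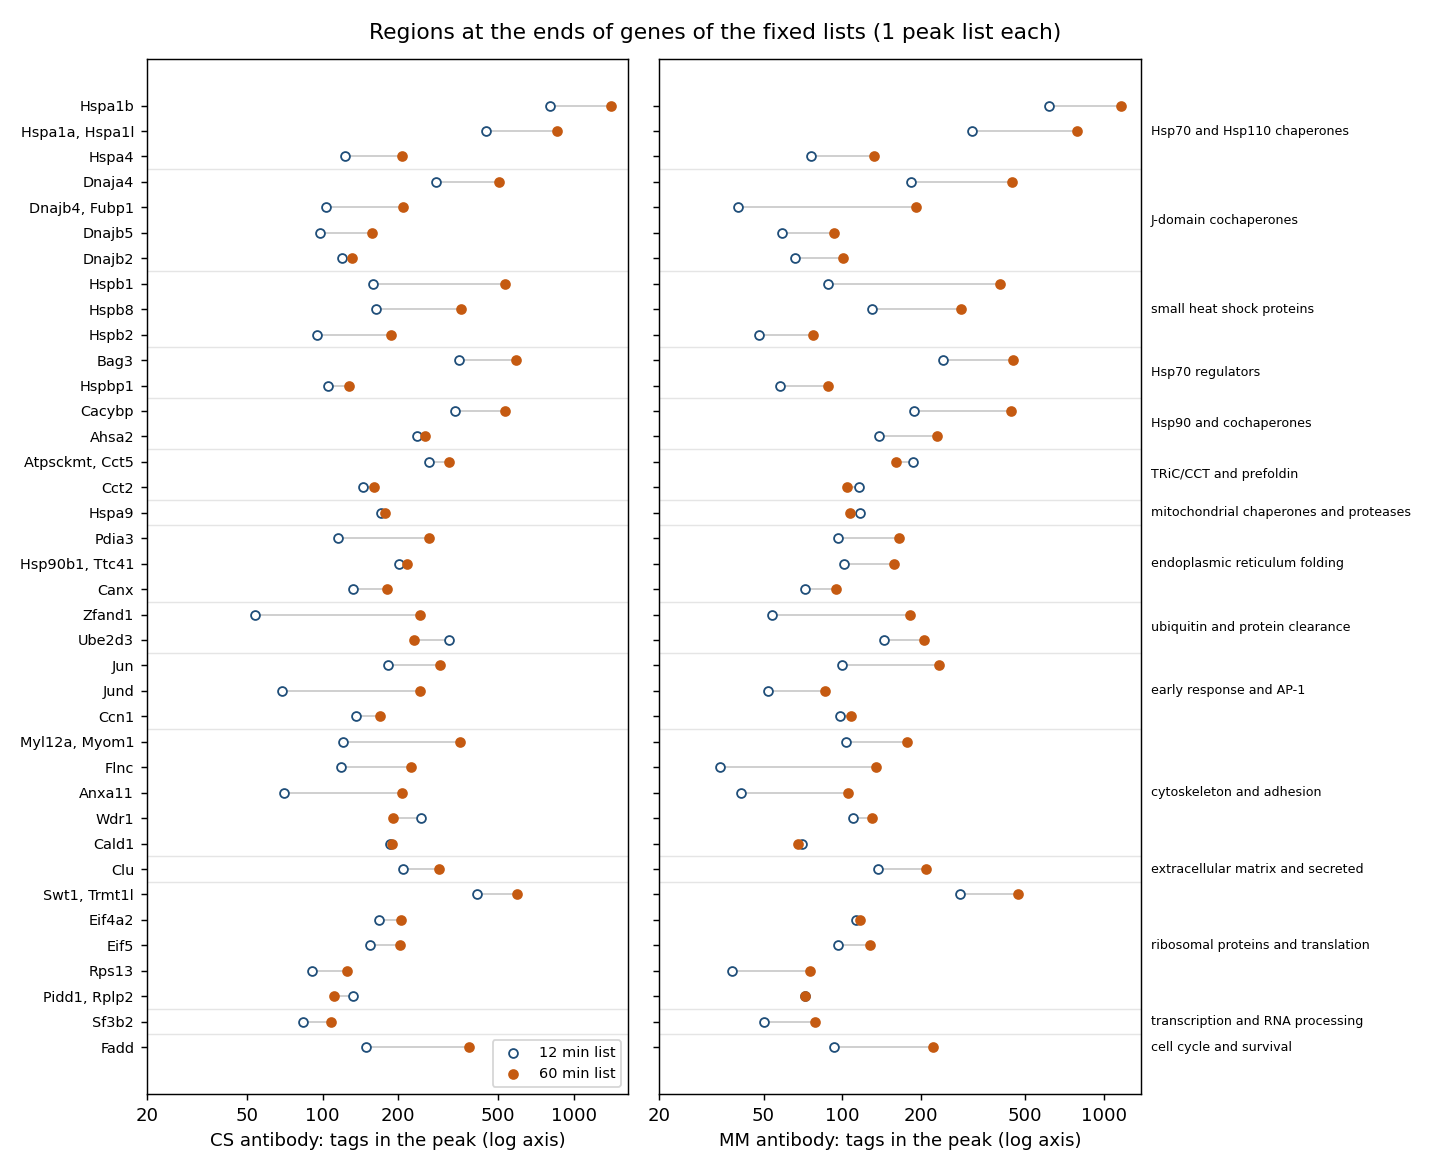
Tags in the CS peak (left) and MM peak (right) of each region at the end of a gene of the fixed lists, on log axes; open circles are the 12 min list, filled circles the 60 min list, and the grey line joins the values of 1 region. In 31 of the 38 regions both antibodies gave more tags in the 60 min list, beside 197 of all 249 members. Ube2d3, Wdr1, Cct5 and Cct2 were among the listed regions where they did not.

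Genes outside protein folding were also among the listed members. The list of early response and AP-1 genes had 3 of 33. Jun, a subunit of the AP-1 transcription factor, held 183 CS and 100 MM tags at 12 min and 293 and 235 at 60 min. Ccn1, a secreted matrix protein induced early by serum, held 136 and 98 at 12 min and 170 and 108 at 60 min. Jund, another AP-1 subunit, held 69 and 52 at 12 min and 244 and 86 at 60 min, with the split summits described above.

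Genes of the cytoskeleton and adhesion had a member at 6 of 52. Myl12a, a regulatory light chain of non-muscle myosin, and Myom1, a protein of the sarcomere's M band, share a region that held 121 CS and 103 MM tags at 12 min and 354 and 177 at 60 min. Flnc, an actin crosslinker, held 119 and 34 at 12 min and 226 and 135 at 60 min. Wdr1, which helps cofilin take actin filaments apart, held 247 and 110 at 12 min and 190 and 130 at 60 min. Cald1, which binds actin and myosin, held 186 and 70 at 12 min and 189 and 68 at 60 min. Anxa11, a calcium-dependent membrane binder, held 70 and 41 at 12 min and 207 and 105 at 60 min.

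In translation, 5 of 61 listed genes had a member: Rplp2, Rps13, Eif4a2, Eif5 and Trmt1l. Trmt1l, a tRNA methyltransferase relative, shares a region with Swt1, an RNA endonuclease, that held 411 CS and 282 MM tags at 12 min and 595 and 471 at 60 min. The other 4 reached 111 to 205 CS tags at 60 min. Of the smaller counts, 1 of 20 matrix and secreted genes (Clu, an extracellular chaperone), 1 of 49 genes of transcription and RNA processing (Sf3b2) and 1 of 22 genes of cell cycle and survival (Fadd, the adaptor of death receptors) had a member. Clu held 209 CS and 137 MM tags at 12 min and 292 and 209 at 60 min, and Fadd 149 and 93 at 12 min and 383 and 223 at 60 min. None of 22 metal and redox stress genes and none of 7 heat shock factor genes did.

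Most members are at genes of none of the lists. The lists' 40 genes with a member account for 38 regions, and 211 regions are at other genes. Mrfap1, a partner of a MORF4 family chromatin protein, was the third by tags at 60 min, with 335 CS and 247 MM tags at 12 min and 662 and 485 at 60 min. Chrac1, a subunit of a chromatin remodelling complex, held 328 and 230 at 12 min and 556 and 423 at 60 min. A region shared by Mrps6, a mitochondrial ribosomal protein, and Slc5a3, an inositol transporter, held 321 and 196 at 12 min and 536 and 396 at 60 min. The remaining regions among the 15 with most tags at a protein-coding gene end were at Lrrc61, Naa16, Tmem33 and Fbxl14, with 436 to 522 CS tags at 60 min.

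Ordered by fold over IgG instead of tags, other genes came first. At protein-coding gene ends Fadd led at 60 min with folds of 186 (CS) and 151 (MM), followed by Lrrc61 (146 and 144), Zfand1 (148 and 142) and Anxa11 (174 and 114). Among all members the non-coding n-TKctt29 (163 and 153) and Gm32518 (139 and 158) stood between Fadd and Lrrc61. Klc1, a kinesin light chain, had folds of 120 and 122, and Slc25a38, a mitochondrial glycine carrier, 119 and 116. Hivep1, a zinc finger protein, had folds of 133 and 97.8, and Heatr5a 122 and 99.4. Hspa1b, first by tags, had folds of 49.9 and 55.9. At 12 min the region of Swt1 and Trmt1l led with folds of 123 and 104, followed by Morf4l2 (112 and 68.3), a chromatin protein, while Fxr1, an RNA-binding protein, was the fourth with 77.2 and 50.2.

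Some regions stood at different places among the 249 at the 2 times, a description of order within the same regions, with names taken after the values were seen. Gm32518 was in place 190 at 12 min and 19 at 60 min, with 74 CS and 36 MM tags and then 469 and 236. Its 60 min region overlapped 2 regions at 12 min, and its 12 min values are those of the region with more CS tags. Ddit4, an inhibitor of the growth regulator mTORC1 that is induced by stress, was in place 185 and then 44, with 52 and 48 tags at 12 min and 297 and 192 at 60 min. Lgals7, a galectin, was in place 142 and then 27. In the other direction Cars2, the mitochondrial cysteinyl-tRNA synthetase, was in place 70 and then 193, with 145 and 83 tags at 12 min and 125 and 53 at 60 min. Nr1h2, the nuclear receptor LXR beta, was in place 76 and then 178. In 197 of the 249 members both antibodies gave more tags in the 60 min list and in 14 both gave fewer. The same count was not made for regions outside the members, so it does not set the members apart.

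At 61 members no protein-coding gene ended within 1 kb of the summit. The nearest genes there were 47 long non-coding RNA genes, 10 pseudogenes of 3 kinds, 2 tRNA genes and 2 regions at miRNA genes. The first of them by tags was at n-TKctt29, a lysine tRNA gene (chromosome 19, 12005127 to 12008162), with 229 CS and 132 MM tags at 12 min and 530 and 312 at 60 min. Next came Gm32620, Gm32518, A630001O12Rik and Gm2885, all long non-coding RNA genes, with 327 to 469 CS tags at 60 min. The region at Mir34b and Mir34c, miRNA genes known as targets of p53, held 94 and 56 tags at 12 min and 68 and 38 at 60 min.

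The rule placed the members within 1 kb of a gene end, where 19.5% of all 60 min regions lay, and fixed nothing about which end. Summits lay 0 to 997 bp from the nearest end with a median of 267 bp, and 224 of 249 regions covered that end. The nearest end was a 5′ end in 173 members and a 3′ end in 17, and in 59 its strand was unknown because the promoter table holds no entry for the gene. Among members of known strand the 5′ share was 91.1% (95% exact interval 86.1% to 94.7%), beside 79.0% (73.6% to 83.8%) for gene-end regions found at 60 min only and 88.9% (77.4% to 95.8%) for those with a peak before heat shock. The intervals cover counting error only, and genes with a promoter entry were the ones that could be assigned.

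Summits fell on both sides of the start. Of 173 members nearest a 5′ end, 73 had the summit upstream and 99 downstream, with a median of 53 bp downstream and the middle 50% of summits between 168 bp upstream and 368 bp downstream. Members at 3′ ends included Fadd (320 bp), Ddit4 (216 bp) and Anxa11 (5 bp). At the limit of the rule, the last members inside were Mns1 at 997 bp, Azin1 at 990 bp and Ino80 at 985 bp, with 222, 201 and 165 CS tags at 60 min. The first regions outside were at 4930592I03Rik (1014 bp), Gm52538 (1040 bp) and A330074K22Rik (1043 bp), with 47, 51 and 323 CS tags.

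**Figure D3:**
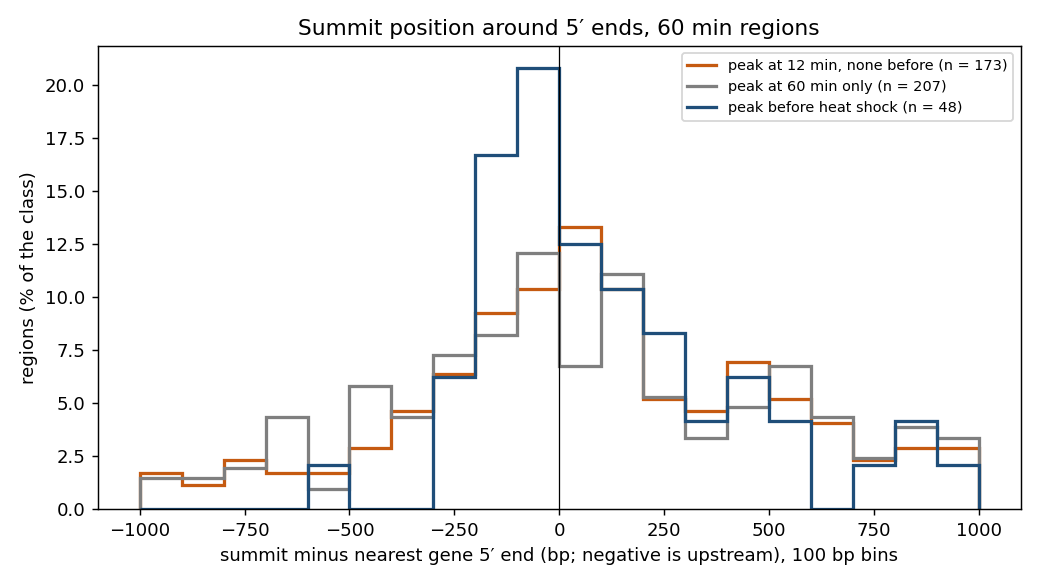
Position of 60 min summits relative to the nearest gene 5′ end (x axis, bp in bins of 100 bp, negative upstream) as a share of each class (y axis, percent), for 173 members in orange, 207 gene-end regions found at 60 min only in grey and 48 with a peak before heat shock in blue. Members spread on both sides of the start, with 73 summits upstream and 99 downstream.

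At 27 members, ends of at least 2 protein-coding genes lay within 1 kb, and at 19 these included 5′ ends on both strands. Examples are Swt1 with Trmt1l, Dnajb4 with Fubp1, Hsp90b1 with Ttc41, Cct5 with Atpsckmt, and H2ac7 with H2bc7, a pair of core histone genes. A peak of this length cannot assign HSF1 to one gene of a pair.

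Neighbouring copies limit a pair of members on chromosome 17. The regions at Ermard and Tcte3 (378 CS and 244 MM tags at 60 min) and at 9030025P20Rik and Gm3417 (390 and 239) were much alike, and the promoters of Tcte3 and Gm3417 are the same in 300 of 300 bases. The tags of these 2 members cannot be assigned to a copy from these lists.

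Promoter sequence gave a view of the members that the rule did not use. A RefSeq promoter window of 300 bp overlapped 171 members (245 windows), and in 63 members a window held the summit itself (73 windows). The motifs searched, on both strands, were the 3-unit forms GAANNTTCNNGAA and TTCNNGAANNTTC, and the pairs printed above, which overlap the 3-unit forms. A 3-unit element was in 11 of 245 windows over members (4.49%, exact interval 2.26% to 7.89%) and in 10 of the 73 that held a summit (13.7%, 6.77% to 23.8%), beside 0.603% of all 32851 promoter windows. Windows of a member can overlap and count an element again, and the intervals do not allow for that. Counted by member, it was 8 of 171 (4.68%, 2.04% to 9.01%) and 8 of the 63 with a window holding the summit (12.7%, 5.6% to 23.5%). A pair of units was in 27.8% of windows over members and 65.8% (53.7% to 76.5%) of those holding a summit, beside 15.1% of all windows. Allowing 1 of the 9 fixed letters of the 3-unit forms to differ, a choice made after seeing how rare the exact form was, gave 64.4% (52.3% to 75.3%) of windows holding a summit and 7.22% of all windows. Other gene-end regions held elements at their summits too. Of windows holding a summit, a 3-unit element was in 19.1% (11.3% to 29.1%) for gene-end regions found at 60 min only and 40.0% (22.7% to 59.4%) for those with a peak before heat shock. With 1 mismatch it was in 42 of 84 and 27 of 30 such windows, and a pair of units was in 51.2% and 76.7%.

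Most matches lay close to the summits. All 9 exact 3-unit elements, at 8 members, had their centre within 48 bp of the summit, with a median of 15 bp. Besides the printed promoters they were at Arpc2, a subunit of the actin-nucleating Arp2/3 complex, with 2 overlapping elements, at H2ac7 and H2bc7, at Nr1h2, where the centre lay on the summit, at Gm31365, and at BC065397 beside Morf4l2. Pairs of units numbered 12.0 per kb scanned within 25 bp of summits, 4.25 per kb from 25 to 50 bp and 0.653 per kb from 50 to 100 bp, where all promoter windows had 0.577 per kb. In 46 members the windows covered 50 bp on both sides of the summit, and 27 of these (58.7%, 43.2% to 73.0%) held a pair in those 101 bp, beside 4.87% of the middle 101 bp of all windows. For 3 units with 1 mismatch it was 26 of 46 (56.5%), beside 2.22%.

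**Figure D4:**
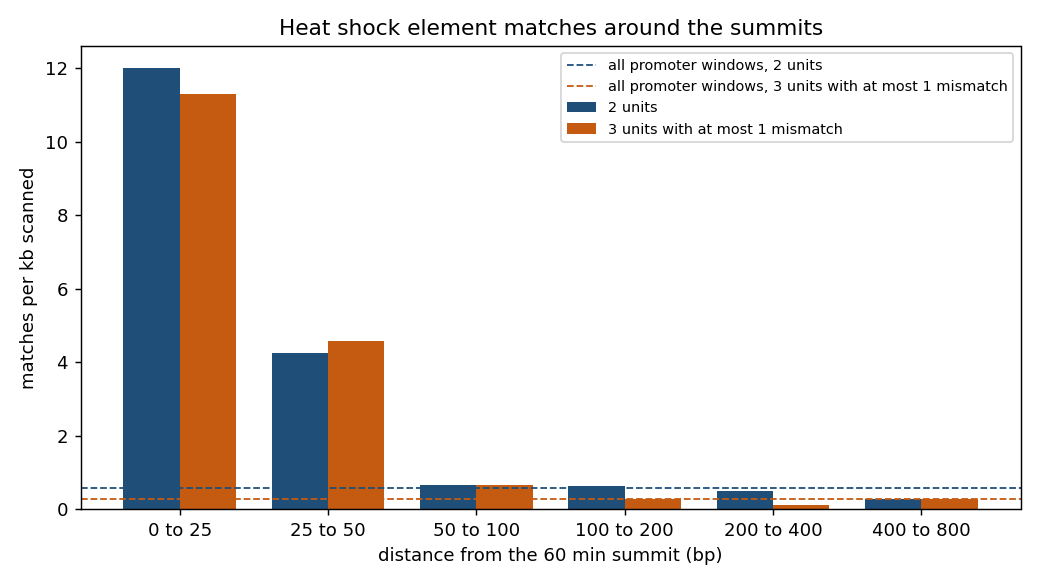
Matches to heat shock element motifs per kb of promoter sequence scanned (y axis) by distance from the 60 min summit (x axis, bp), for pairs of units in blue and 3 units with at most 1 mismatch in orange, over 171 members with a promoter window; dashed lines are the rates over all promoter windows. The bars stand at 12.0 and 11.3 per kb within 25 bp. Beyond 50 bp they stand at 0.653 per kb or less, with the dashed lines at 0.577 for pairs and 0.273 for 3 units with at most 1 mismatch.

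Members with and without an exact 3-unit element overlapped in tags. Among members with a promoter window, the 8 with an element held 108 to 315 CS tags at 60 min (median 156), and the 163 without one held 46 to 1402 (median 181). Their folds stood in the other order, with a median CS fold of 45.1 beside 37.8 and a median MM fold of 38.01 beside 30.8. No match says only that these letters are not in that window, which covers a small part of most regions. The windows over members were rich in G and C, with a median of 62.3% beside 52.7% over all windows and 56.3% over those of protein-coding genes. Over gene-end regions found at 60 min only it was 58.7%, and over those with a peak before heat shock 64.3%. A CpG ratio (observed over expected CpG) of 0.6 or more was found in 75.5% of windows over members, beside 47.7% of those of protein-coding genes, 68.2% over gene-end regions found at 60 min only and 92.6% over those with a peak before heat shock. The CCAAT letters, on either strand, were in 34.3% of windows over members and 37.4% of all windows.

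The HSF1-/- lists hold the peaks called with both antibodies in the knockout cells. Each of them held 3170 to 7813 peaks, beside 1781 to 4773 in each wild type heat shock list. Of 249 members, 49 overlapped a peak of at least 1 of the 6 knockout lists (19.7%, 14.9% to 25.2%), beside 8.86% of all 60 min regions. The share was 11.3% (8.56% to 14.6%) for 12 min regions inside genes, 8.70% (5.76% to 12.5%) between genes, 12.9% (9.54% to 16.8%) for gene-end regions found at 60 min only and 36.0% for gene-end regions with a peak before heat shock. Longer regions can meet a peak more often, and per 100 kb covered the overlaps numbered 12.7 for members, 8.50 inside genes, 7.16 between genes, 10.8 for gene-end regions found at 60 min only and 7.68 over all regions. The part of region length in the difference was not tested.

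The knockout peaks under members were small. None of the knockout peaks under the 3455 regions of 60 min, members included, had a p of 1e-10 or less. Under members there were 66 peaks with 4 to 25 tags and a median of 6, and 38 of the 49 members met peaks of 1 list only. The highest was at Ccn1 with 25 tags, where 3 knockout lists had a peak, followed by Ermard and Tcte3 with 16, A630001O12Rik with 11 and Jun with 10. Arc, an early response gene of neurons was the 1 member over a knockout region shared by CS and MM, with 6 and 8 tags, beside 323 CS and 216 MM tags in the wild type at 60 min. Hspa1b, Hspb2, Cfap299, Ist1, Ndufa6 and Zfp335os had at most 8 knockout tags. The knockout lists were called without a control library from 5.18 to 15.6 M tags (M for mega, as in Mb), and the wild type heat shock lists against IgG from 14.0 to 26.3 M, so tags are set side by side and no ratio is given. The estimated fragment length was 33 to 40 bp in the knockout libraries, close to the 36 bp tags. What gives rise to the knockout peaks was not tested.

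**Figure D5:**
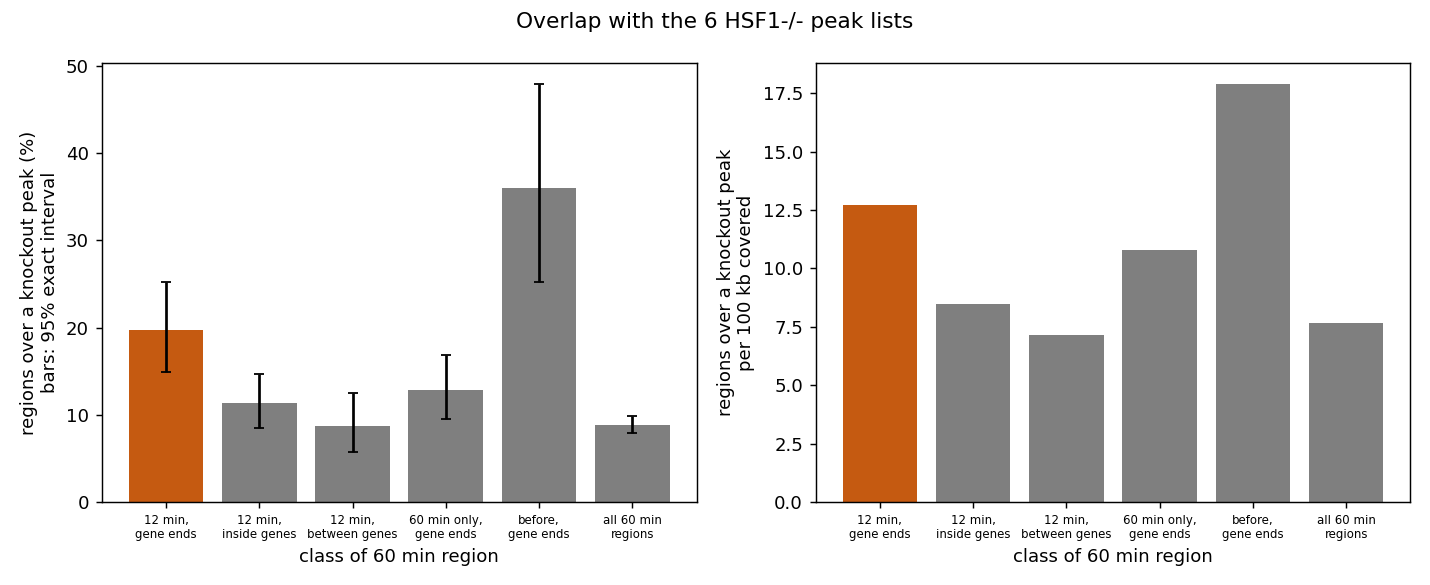
Share of 60 min regions that overlap a peak of any of the 6 HSF1-/- lists (left, percent, with 95% exact intervals) and the same overlaps per 100 kb of region covered (right), for members in orange and other classes in grey. Members stand at 19.7% and 12.7 per 100 kb, between gene-end regions found at 60 min only (12.9% and 10.8) and those with a peak before heat shock (36.0% and 17.9).

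SRF, a factor known for binding immediate early and actin genes, met few members. Of 249 members, 5 overlapped an SRF peak (2.01%, 0.655% to 4.62%), beside 0.637% of all 60 min regions. The share was 1.67% (0.545% to 3.86%) for 12 min regions between genes and 0.889% (0.243% to 2.26%) inside genes. It was 0.0% for gene-end regions found at 60 min only and for those with a peak before heat shock. Per 100 kb covered the overlaps numbered 1.29 for members and 1.38 between genes. All 5 SRF peaks at members were of the 12 min list. Wdr1 had the highest of these 5 SRF peaks, with a pileup (tags stacked at the summit) of 5 and a -log10 q of 4.69, its summit 201 bp from that of HSF1. The peaks at Ermard and Tcte3, at 9030025P20Rik and Gm3417, at Myl12a and Myom1, and at Sf3b2 had a pileup of 3, and none of these 4 passed a q of 0.05. The Ermard and 9030025P20Rik peaks had the same pileup and fold, at the near-identical copies described above. The SRF libraries kept 0.751 to 1.55 M tags, and their lists held 18 to 68 peaks each. Why the other members had no SRF peak was not tested.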

How the data were processed

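Peak lists of ChIP-seq libraries were analysed. Per the file headers, the authors used MACS 1.4.2 for CS and MM peaks (p cutoff 1e-04) with at most 1 tag kept per position, the wild type lists from 2 merged replicates against IgG of that time and the knockout lists without a control. For SRF the headers name MACS 2.0.9 with an IgG control. Coordinates are mm10, per the labels. The alignment program was not given in the sources used here. As deposited by the authors, each MACS 1.4.2 peak has a tag count, a score (its p-value's negative log10, multiplied by 10), a fold enrichment (a ratio) and, with a control, an FDR in percent. Each SRF peak has, as deposited, a pileup (a signal), the -log10 of a p-value and of a q-value, and a fold ratio. Tags kept per library numbered 14.0 to 26.3 M (M for mega) for wild type CS and MM, 9.23 to 12.3 M for IgG, 5.18 to 15.6 M in the knockout and 0.751 to 1.55 M for SRF.

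Regions, overlaps (at least 1 bp) and distances were computed with Python 3.11.15, pandas 2.3.3 and scipy 1.17.1, and these steps recovered what was planted in simulated peaks. The motif search of the promoters was not checked in this way. Gene ends came from the RefSeq table of GRCm38.p6, the primary assembly of mm10 (49997 genes), strands and promoters from the RefSeq promoter table (27025 genes). With 1 list per genotype, time and antibody there was no test; shares carry exact (Clopper-Pearson) 95% intervals. Named were all members at genes of the 17 lists (446 genes, all found), the first 15 at protein-coding gene ends by tags and by fold at 60 min and the first 10 at 12 min, the first 5 by tags without a protein-coding gene, the 3 regions on each side of the 1 kb limit, members over SRF peaks and the 10 with most knockout tags. Printed promoters held the summit: those with a 3-unit element, at most 2 per list, and the first 2 by tags without one. Bag3, Hspb1 and Hspb8 were added outside that rule, after their values were seen. Members and lists were chosen with earlier results of these data known. Alternatives changed the distance limit, genes, summit, thresholds, overlap and motif.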

Additional observations from a re-analysis of the deposited data

How the results depend on the processing

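The number of members ranged from 172 to 335 around the reported 249 under other distance limits, gene sets, summits, overlaps and an FDR limit of 5%, and fell to 115 when every peak had to have a p of 1e-10 or less. The share of members over a knockout peak was 19.7% with any list. With the 60 min knockout lists it was 8.43%, beside 3.33% of all 60 min regions, and with the 12 min lists 7.23%, beside 3.18%. It was 0.402% (1 member) with knockout regions shared by CS and MM, beside 0.0579% of all regions. With knockout peaks of p 1e-10 or less it was 0.0%, as over all regions. The share over an SRF peak (2.01%) was 0.0% with the 60 min list, beside 0.145% of all regions. With SRF peaks of q 0.05 or less it was 0.402%, beside 0.289%. The share of promoter windows with a heat shock element (4.49% with 3 exact units) was 27.8% with 2 units, 24.5% with 3 units and 1 mismatch, which was added after seeing the data, and 13.7% where the window held the summit. These alternatives use other lists, fewer peaks, looser letters or fewer windows by construction. The median distance to a gene end and the rank agreement between CS and MM moved little. By fold instead of tags, rho between 12 and 60 min was lower, at 0.55 for CS and 0.557 for MM, beside 0.675 and 0.719. No paired analysis was possible because each genotype, time and antibody had 1 list and no result comes from a test. The SRF libraries kept 0.751 to 1.55 M tags (M for mega) and the knockout libraries 5.18 to 15.6 M. How far depth limits what those lists detect was not tested, and intervals cover counting error only.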
